A study of Mus musculus with 14 samples.

Results

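Actin dynamics genes build, feed, cut and branch the actin filaments of a cell. The 10 described here are the cytoplasmic actins Actb and Actg1, the thymosins Tmsb4x and Tmsb10, the profilin Pfn1, the cofilin Cfl1, the coronin Coro1a and the Arp2/3 subunits Arpc1b, Arpc2 and Arpc3. They were taken by gene name from a list drawn up with earlier results of these data known, and are 10 of the 47729 genes in the deposited tables. All 10 were among the 14279 genes with enough reads to be tested. The libraries are of resident microglia, the macrophages of the neural retina, sorted from mouse retinas as CD11b+, Ly6c- and Fcrls+ cells. All mice were wild-type C57BL/6 animals of 12 weeks. The microbead group (3 libraries) had received an injection of microbeads, a way to raise eye pressure as in glaucoma, and the contralateral group (3) is the opposite eye of injected animals. The sham group (4) had a sham injection and the naive group (4) had none. Each of the 14 libraries is 1 retina, from which 100 to 600 cells were collected and lysed at 100 to 300 cells in 5 µl. The time between injection and collection was not in the labels used, and no label says which retinas came from 1 mouse. The p-values therefore measure the spread between retinas.

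Actin exists as single subunits and as filaments that grow at one end and are taken apart at the other. Thymosins hold subunits in reserve, profilin delivers them to growing ends, cofilin severs old filaments, and the Arp2/3 complex starts a new branch on the side of an existing one. Coronin 1A is a filament-binding protein of blood cells that acts with Arp2/3 and cofilin. Microglia use this machinery to move their processes, to migrate and to engulf debris. Actin genes are known targets of serum response factor, which binds the CArG box and whose cofactors are held back by free actin subunits.

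The upstream sequences of Tmsb4x and Actg1 are shown because these were the members with an unadjusted p under 0.05 in at least 1 comparison. They come from RefSeq's promoter table (GRCm38.p6), run 5′ to 3′ on the minus strand of each gene, and end upstream of every annotated start. Capitals mark the CArG box of Actg1 (CC, 6 bases that are A or T, GG), whose first base lies 90 bases before the RefSeq start, and the GGGCGG motif of Tmsb4x, 211 bases before it. The stretch of Actg1 is chr11:120348546-120348745 and that of Tmsb4x is chrX:167209319-167209468.
Actg1: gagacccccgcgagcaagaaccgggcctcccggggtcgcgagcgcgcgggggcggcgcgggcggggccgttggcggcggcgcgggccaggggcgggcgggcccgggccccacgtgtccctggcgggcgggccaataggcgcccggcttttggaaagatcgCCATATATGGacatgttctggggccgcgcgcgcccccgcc
Tmsb4x: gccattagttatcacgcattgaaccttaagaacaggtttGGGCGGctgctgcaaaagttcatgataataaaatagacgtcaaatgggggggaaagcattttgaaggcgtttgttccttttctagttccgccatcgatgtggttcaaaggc
The table holds 9 of the 10 members and has no entry for Actb, which was therefore not searched. Among 32851 promoters of 300 bases, searched on both strands, 1.63% held a CArG box, and Actg1 was the 1 of these 9 members that did. GGGCGG, the binding motif of Sp factors, was in 9 of 9 members and in 35.7% of all promoters. The units differ, since a member with several promoters counts once if any of them holds the motif, while the shares count promoters. CCAAT was found in Actg1 and Cfl1 (37.4% of all promoters), TATAAA in 0 members (13.6%), and GAGGAAGT, a motif of the myeloid factor PU.1, in Arpc1b (3.2%). These matches describe letters in a window and not bound sites.

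Sequencing depth ranged from 1340512 to 13995779 expected counts per library. The shallowest library was microbead 1, with 10167 detected genes, and contralateral 2 had 10306, while the other 12 libraries had more than 12000. Short transcripts were over-represented in the microbead libraries. Relative to the naive mean, the median log2 difference of 863 genes with transcripts up to 1000 bases minus that of 1328 genes over 4000 bases was 1.90, 0.79 and 1.26 in the microbead libraries, 0.46, 0.87 and -0.28 in the contralateral libraries, and -0.27 to 0.16 in sham and naive. This touches the members directly, since the mean transcript length was 574 bases for Tmsb10, 698 for Arpc3, 760 for Tmsb4x and 813 for Pfn1, against 1148 to 1786 for the other 6. Microbead values below are therefore given as counted and with the trend over length removed.

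Naive microglia expressed the members at levels that spanned about 2 orders of magnitude. Per length, in FPKM, Tmsb4x (3171 ± 434, SD, n = 4) and Actb (3076 ± 689) stood highest, and their naive ranges overlapped. Actg1 (693 ± 154), Pfn1 (615 ± 46.2), Arpc1b (548 ± 120) and Coro1a (490 ± 35.8) followed, each overlapping the next in the naive libraries. Below them came Cfl1 at 276 ± 24.7 FPKM and Arpc2 at 211 ± 55.7, and the ranges of Coro1a and Cfl1 and of Cfl1 and Arpc2 did not overlap. Arpc3 was lower, at 72.1 ± 8.28 FPKM, and Tmsb10 was the lowest member, at 33.3 ± 7.58. The 2 thymosins, which share a function, thus stood at opposite ends of the order. Across all 14 libraries Actb was above Actg1 in 14 of 14 and Tmsb4x was above Actb in 6 of 14.

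Within groups, the members varied less than most genes. The SD pooled over the 4 groups, on the log2 scale, was lowest for Actb (0.19), Pfn1 (0.29) and Actg1 (0.30) and highest for Tmsb10 (0.67), against a median of 1.09 over 8718 genes of at least 10 CPM (counts scaled to the size of the library). Of these genes, 0.1% had a smaller SD than Actb and 24.3% a smaller one than Tmsb10. They were not matched to the members for level, and most members stood far above 10 CPM. The part of level in the smaller spread was not tested. Several members spread more widely in microbead than in sham. The coefficient of variation in CPM in microbead was 75.7% for Tmsb4x, 64.3% for Coro1a, 52.0% for Cfl1, 46.4% for Arpc2 and 45.7% for Arpc1b. In sham it was 6.4 to 9.7% for these 5. In the same order it was 3.0%, 25.8%, 36.8%, 51.1% and 33.9% in contralateral, and 18.6%, 8.4%, 9.6%, 26.0% and 14.4% in naive. The largest value of any member in any group was 87.9%, for Tmsb10 in contralateral.

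In the quasi-likelihood test of edgeR no member reached an adjusted p under 0.05, in any of the 6 comparisons or in the joint test over the 4 groups. Few genes did: 0.21% of those tested for microbead against naive, 0.014% against sham, 0.028% against contralateral, 0.0% for sham against naive, 0.0% for contralateral against naive, 0.0% for contralateral against sham, and 0.224% jointly. At an unadjusted p under 0.05, 2 of 10 members (Tmsb4x and Actg1) differed between microbead and naive, against 10.5% of all genes. Tmsb4x alone did so for microbead against sham (9.75% of genes) and against contralateral (11.5%). Actg1 alone did so for contralateral against naive (5.18%) and against sham (4.86%), and no member did for sham against naive (2.66%). In the joint test 2 members did, against 8.17% of genes. The DESeq2 Wald test called Tmsb4x alone in the 3 microbead comparisons and no member in the other 3 comparisons. It called 3.97%, 3.17% and 4.51% of genes in the 3 microbead comparisons. For sham against naive it called 0.182%, for contralateral against naive 0.448% and for contralateral against sham 0.413%. The likelihood ratio test of DESeq2 over the 4 groups also called Tmsb4x alone, with 3.35% of genes.

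**Figure D1:**
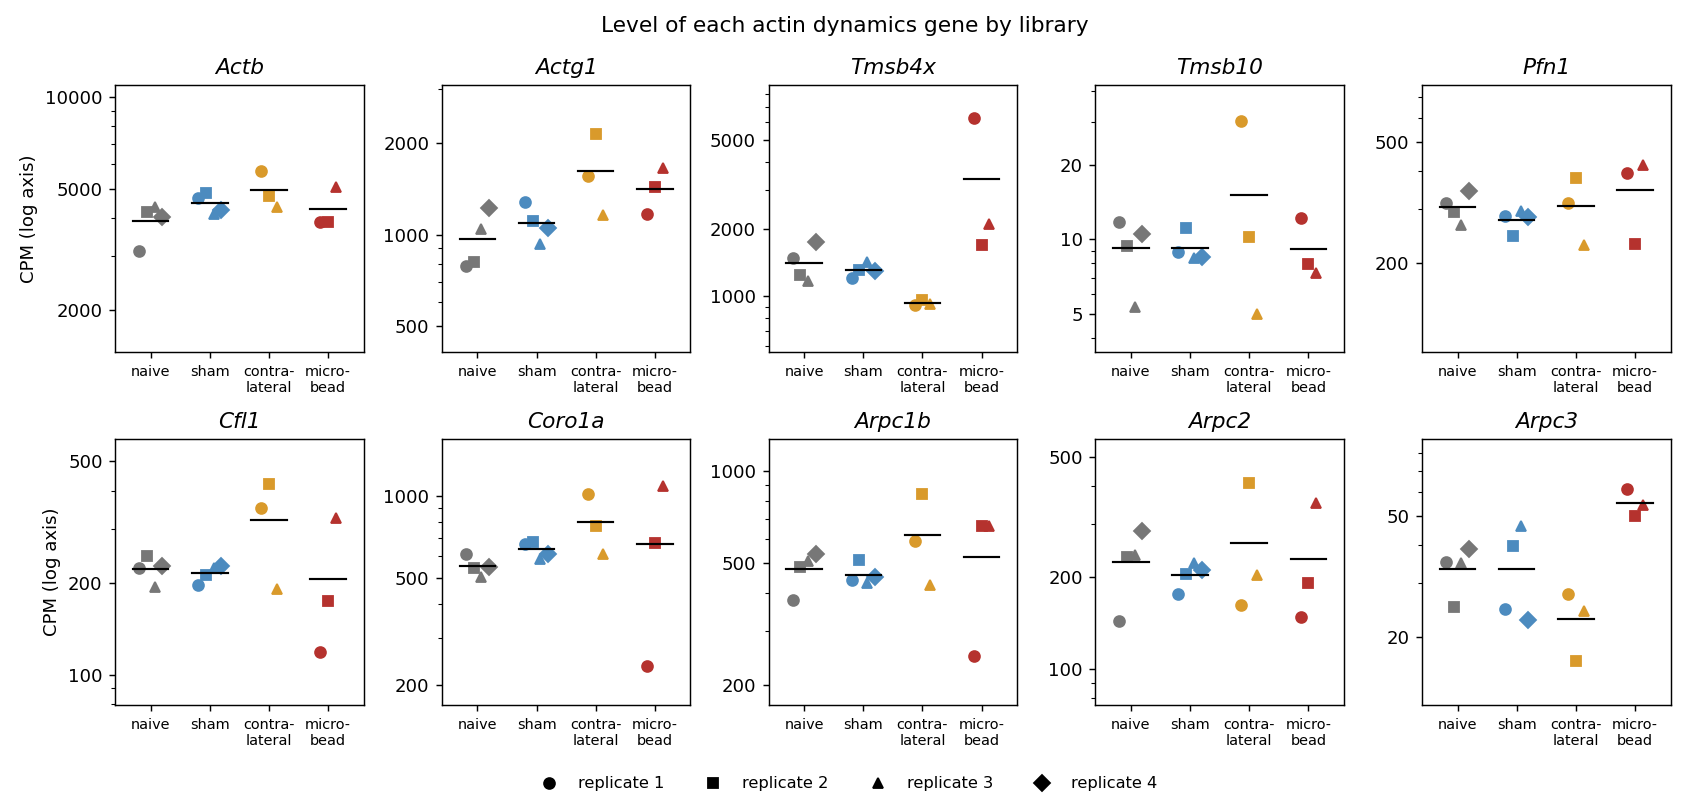
CPM of each gene in each library on a log axis, by group, with a symbol for the replicate number and a line at the group mean. Tmsb4x reaches 6284 CPM in microbead 1, the 3 contralateral libraries lie at 915 to 967 CPM, and the 3 microbead libraries of Arpc3 (49.9 to 61.0 CPM) lie above all others.

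Tmsb4x, which encodes thymosin beta 4, the main store of actin subunits, had the largest log2 fold change of the members in the 3 microbead comparisons as counted with all libraries. It was not the largest with the length trend removed, where that of Tmsb10 was larger in size in all 3, or without microbead 1, where that of Arpc3 was larger in all 3. It stood at 6284, 1691 and 2099 CPM in microbead libraries 1 to 3, at 915, 967 and 921 in contralateral, at 1206, 1310, 1419 and 1299 in sham, and at 1487, 1247, 1171 and 1753 in naive. Every microbead library was above every sham and contralateral one, while microbead 2 was below naive 4, so the microbead and naive groups overlapped. The log2 fold change of microbead was 1.25 against naive (SE 0.33, 95% interval 0.56 to 1.93, edgeR adjusted p 0.119). Against sham it was 1.36 (0.67 to 2.05, edgeR adjusted p 0.103) and against contralateral 1.85 (1.08 to 2.61, edgeR adjusted p 0.0633). The joint edgeR test gave an adjusted p of 0.0611.

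The size of the Tmsb4x difference rested on the shallow microbead 1 library. Without it, the log2 fold change was 0.40 against naive, 0.51 against sham and 1.06 against contralateral, with edgeR adjusted p-values of 0.622, 0.568 and 0.0834. Leaving out microbead 2 or microbead 3 instead gave log2 fold changes of 1.48 to 2.21, and Tmsb4x passed the test in all 3 comparisons, with edgeR adjusted p-values of 0.0157 to 0.0387. Removal of the length trend gave a fold change of 0.03 against naive, 0.12 against sham and 0.87 against contralateral, with edgeR adjusted p-values of 0.997, 0.974 and 0.287. DESeq2 gave adjusted p-values of 0.0202, 0.0109 and 5.67e-04 as counted. The part that transcript length or library depth has in the difference was not tested beyond these values.

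In the contralateral retinas Tmsb4x was lower than in any naive or sham library. Its log2 fold change was -0.60 against naive (-1.30 to 0.10, edgeR adjusted p 0.966) and -0.49 against sham (-1.18 to 0.21, edgeR adjusted p 1.0), neither of which passed. It was the 1 member lying below all libraries of the other group in both comparisons, where 3.73% and 3.88% of genes did so, and no member lay above, where 2.49% and 2.04% did. Once the length trend was removed the differences were -0.84 and -0.75.

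Tmsb10, the related thymosin beta 10, was measured from few reads. It stood at 12.2, 7.92 and 7.29 CPM in microbead, 30.2, 10.3 and 4.99 in contralateral, 8.42 to 11.2 in sham and 5.33 to 11.8 in naive. The microbead 1 library held 17.0 expected counts of it. Contralateral 1 stood apart at the top of the whole range, and the groups overlapped in every comparison. The log2 fold change against naive was -0.02, with an interval of -2.22 to 2.18, so log2 changes of up to 2.18 upward lay within the error at this depth. With the length trend removed the microbead differences were -1.29 against naive, -1.37 against sham and -1.60 against contralateral, none of which passed (edgeR adjusted p 0.827, 0.815 and 0.639).

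Actb, which encodes beta-actin and is often used as a reference gene, was the steadiest member. Its levels were 3879, 3893 and 5056 CPM in microbead, 5696, 4730 and 4355 in contralateral, 4122 to 4844 in sham and 3112 to 4364 in naive. The microbead group overlapped all 3 others. The log2 fold change of microbead was 0.12 against naive (-0.28 to 0.53), -0.06 against sham (-0.47 to 0.34) and -0.20 against contralateral (-0.64 to 0.23). The intervals of these microbead comparisons thus reach at most 0.64 in size. Removing the length trend gave -0.02, -0.18 and -0.25. Contralateral against naive gave 0.33 (-0.07 to 0.73, edgeR adjusted p 0.968), and 0.24 with the length trend removed.

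Actg1, which encodes gamma-actin, was measured at 1168, 1426 and 1646 CPM in microbead and at 1561, 2139 and 1156 in contralateral. Sham libraries lay at 928 to 1277 CPM and naive libraries at 788 to 1217. The microbead and contralateral groups lay toward the top of the range, with some overlap with naive and sham. The log2 fold change was 0.75 for contralateral against naive (0.23 to 1.26, edgeR p 0.00679, adjusted p 0.949) and 0.57 against sham (edgeR p 0.0313, adjusted p 0.963). For microbead against naive it was 0.55 (0.04 to 1.06, edgeR p 0.0369, adjusted p 0.449). Actg1 is the longest of the member transcripts, and removing the length trend changed these values little, to 0.66, 0.52 and 0.48. Of its 31-base stretches, 40.2% also occur in transcripts of other genes, among them the predicted gene Gm12715, so its reads could be divided between copies. This limit is not particular to Actg1. The share was 32.0% for Tmsb10, 30.5% for Arpc1b, 23.6% for Actb and 22.6% for Cfl1, and 5.1% or less for the remaining members.

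Pfn1, Cfl1 and Coro1a, which load, sever and bind filaments, did not pass in any comparison. Pfn1 stood at 394, 230 and 420 CPM in microbead against 267 to 345 in naive, with a log2 fold change of 0.19 (-0.38 to 0.76). Cfl1 stood at 118, 174 and 325 CPM in microbead and at 350, 421 and 190 in contralateral, around a naive range of 193 to 244. Coro1a stood at 235, 668 and 1091 CPM in microbead, the lowest and the highest of its 14 values. Microbead 1 was thus the lowest library for Cfl1 and Coro1a, and microbead 3 was above every naive library for all 3 genes. The log2 fold change of microbead against naive was -0.11 for Cfl1 (-0.82 to 0.60) and 0.27 for Coro1a (-0.45 to 1.00), and without microbead 1 it was 0.14 and 0.65. Removing the length trend gave -0.70 for Pfn1 (edgeR p 0.0152, adjusted p 0.533), -0.55 for Cfl1 and 0.04 for Coro1a against naive, and -0.57, -0.49 and -0.14 against sham.

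Arpc3, a subunit of the Arp2/3 branching complex, was higher in CPM in each microbead library than in every other library. In the authors' FPKM it was not, since microbead 3 (84.9 FPKM) was below contralateral 1 (107 FPKM) and sham 3 (91.4 FPKM). In CPM it stood at 61.0, 49.9 and 54.1 CPM in microbead, 27.8, 16.7 and 24.4 in contralateral, 24.8, 39.7, 46.1 and 22.7 in sham, and 35.3, 25.0, 35.03 and 38.9 in naive. Among all genes tested, 4.85% lay above every naive library in this way, 5.11% above every sham library and 5.2% above every contralateral one. Arpc3 did so in all 3 comparisons and Tmsb4x in the last 2, while no member lay below, where 6.98%, 7.08% and 5.64% of genes did. The log2 fold change was 0.71 against naive (-0.45 to 1.87), 0.72 against sham (-0.44 to 1.88) and 1.26 against contralateral (-0.01 to 2.53), with edgeR adjusted p-values of 0.716, 0.735 and 0.437. Microbead 1 held 85.0 expected counts of it, and without that library the fold changes were 0.61, 0.62 and 1.21. After removal of the length trend they were -0.32, -0.32 and 0.44, so the first 2 changed sign.

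The other Arp2/3 members did not follow Arpc3. Arpc1b, the subunit form common in blood cells, stood at 248, 665 and 663 CPM in microbead, so that microbead 1 was the lowest of all 14 libraries and the other 2 were above every naive and sham library. Its log2 fold change against naive was 0.14 (-0.52 to 0.80). Arpc2, which helps anchor the complex to the mother filament, stood at 148, 191 and 351 CPM in microbead and 163, 410 and 204 in contralateral, with a log2 fold change of 0.04 against naive (-0.73 to 0.80). With the length trend removed the values against naive were -0.22 for Arpc1b and -0.23 for Arpc2. Of the 6 other subunits or subunit forms (Actr2, Actr3, Arpc1a, Arpc4, Arpc5 and Arpc5l), 0 passed in any comparison. Their median log2 fold change was 0.29 for microbead against naive, 0.37 against sham and 0.84 against contralateral. Once the length trend was removed these medians were 0.19, 0.37 and 0.89.

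**Figure D2:**
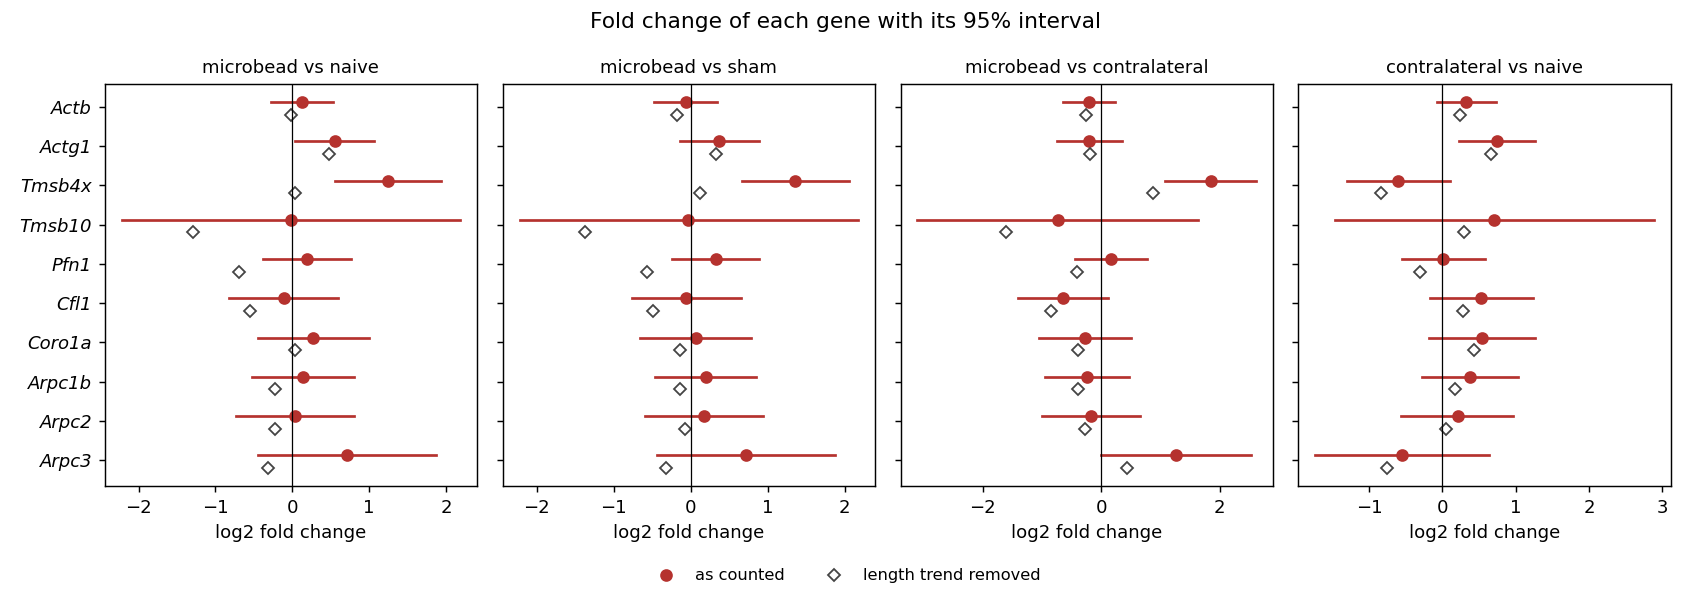
Log2 fold change of each gene in 4 comparisons as counted (circles, with the 95% interval) and with the length trend removed (diamonds). The circles of Tmsb4x lie at 1.25, 1.36 and 1.85 in the microbead comparisons, and its diamonds lie at 0.03, 0.12 and 0.87.

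Most members had somewhat higher values in microbead retinas than in naive and sham retinas, as counted, and none passed. Their median log2 fold change was 0.16 against naive, where the median of all genes was -0.14, with 8 members higher and 2 lower. Against sham it was 0.19 (all genes -0.12, with 7 higher and 3 lower), and against contralateral it was -0.20 (all genes -0.08, with 3 higher and 7 lower). With the length trend removed the medians were -0.23, -0.16 and -0.33, against -0.26, -0.24 and -0.17 for all genes. The direction of the first 2 therefore depends on the treatment of transcript length. The 3 comparisons share the microbead libraries.

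Contralateral retinas, which were not injected, had higher values of most members as counted, and none passed. The median log2 fold change was 0.35 against naive (all genes -0.06) and 0.34 against sham (all genes -0.04), with 8 members higher and 2 lower in each. With the length trend removed the medians were 0.20 and 0.22. Sham and naive hardly differed, with a median of -0.03 (all genes -0.02) and member values from -0.14 to 0.21.

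**Figure D3:**
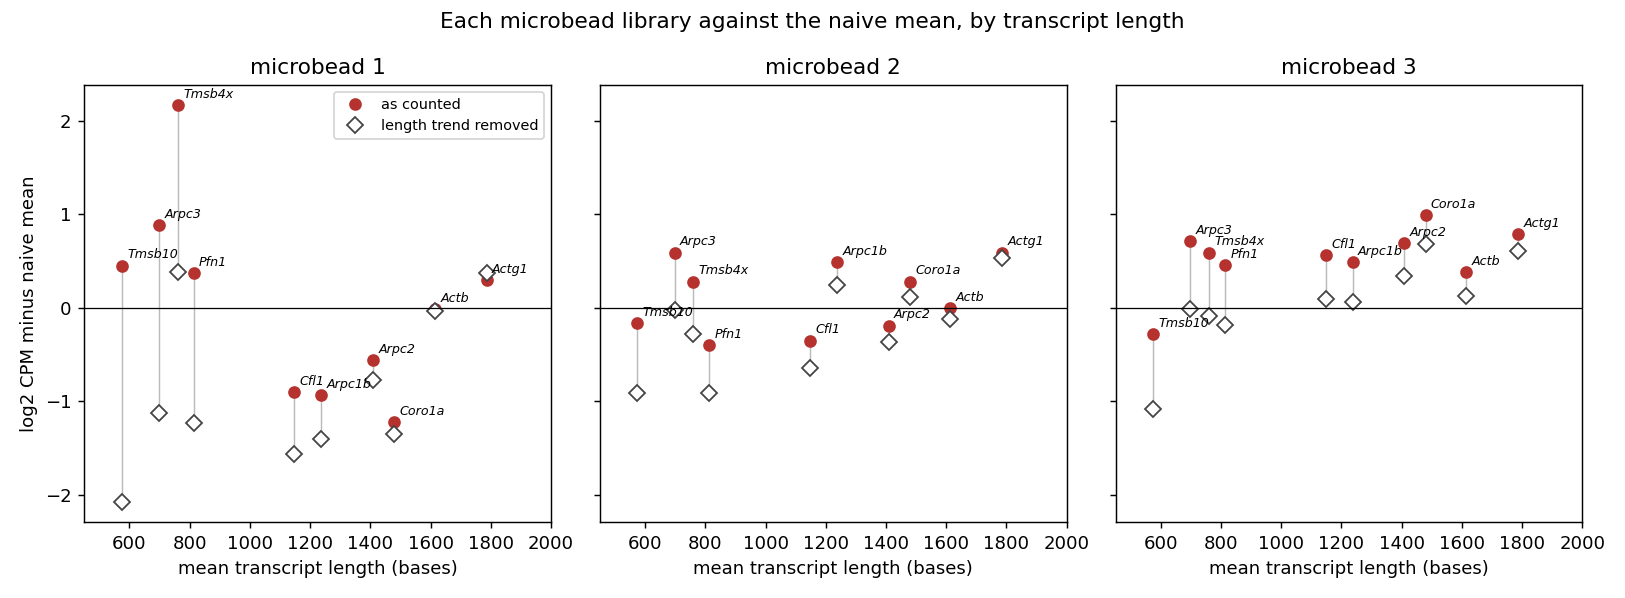
Log2 CPM of each gene in each microbead library minus the naive mean, against mean transcript length, as counted (circles) and with the length trend removed (diamonds). In microbead 1 Tmsb4x falls from 2.17 to 0.38 and Tmsb10 from 0.45 to -2.08, while Actb and Actg1 barely move.

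Library by library, the correction was largest for the 4 shortest transcripts. In microbead 1 Tmsb4x was 4.5 times the naive mean as counted, a log2 difference of 2.17, and 0.38 with the length trend removed. In microbead 2 and 3 its differences of 0.28 and 0.59 became -0.28 and -0.09. Arpc3 went from 0.88, 0.59 and 0.71 to -1.13, -0.02 and -0.01 in the 3 microbead libraries. Coro1a, a longer transcript, went from -1.22, 0.28 and 0.99 to -1.35, 0.12 and 0.68. The curve is fitted to all genes and would also take out a difference that short-transcript genes share for another reason.

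Ratios of paired genes within a library do not depend on the scaling between libraries. The expected counts of Actb were 3.32, 2.73 and 3.07 times those of Actg1 in microbead, 3.65, 2.21 and 3.77 times in contralateral, 3.65 to 4.44 times in sham and 3.32 to 5.15 times in naive. The log2 ratio of Actg1 to Actb was 0.44 higher in microbead than in naive and 0.44 higher than in sham (exact permutation p 0.0571 for both, adjusted p 0.114 over 6 tests). That is the smallest two-sided p that 3 libraries against 4 can give with this test, so no ratio could pass 0.05. Both transcripts are long and of like length. The log2 ratio of Tmsb10 to Tmsb4x differed by -1.0 from naive (exact permutation p 0.114, adjusted p 0.171) and by -1.14 from sham (exact permutation p 0.0571, adjusted p 0.114), with Tmsb4x at 213 to 500 times Tmsb10 in microbead. The ratio of Arpc1a to Arpc1b differed by -0.19 from naive and 0.54 from sham (exact permutation p 0.629 and 0.343).

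**Figure D4:**
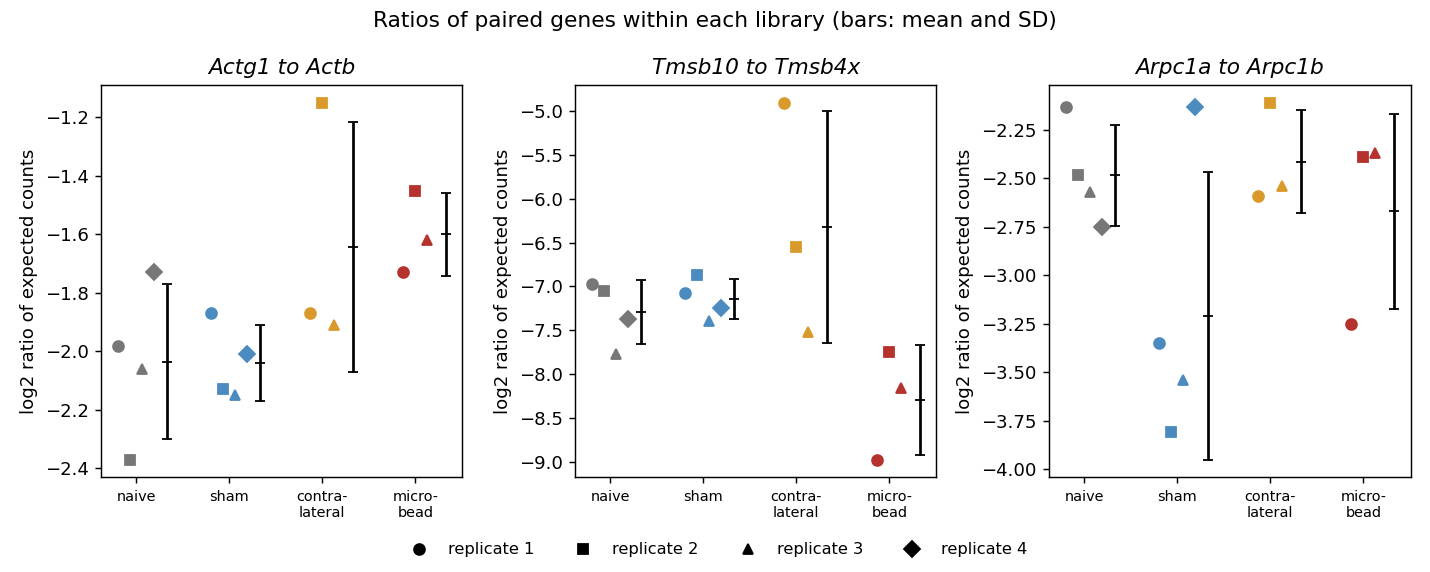
Log2 ratio of expected counts of 3 gene pairs in each library, with the mean and SD of each group beside the points. The 3 microbead libraries lie above all 4 sham libraries for Actg1 to Actb and below all 4 for Tmsb10 to Tmsb4x.

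The wider actin machinery was taken as 108 genes in 8 lists, drawn up with earlier results of these data known. Of the 98 tested, 0 passed in any comparison (edgeR). At an unadjusted p under 0.05 there were 9 of 98 for microbead against naive, 8 of 98 against sham and 19 of 98 against contralateral. Beside these stood 10.5%, 9.75% and 11.5% of all genes. There were 12 of 98 for contralateral against naive and 9 of 98 against sham, beside 5.18% and 4.86% of all genes. Sham against naive gave 2 of 98, beside 2.66%, and the joint test 12 of 98, beside 8.17%. The share exceeded that of all genes for microbead against contralateral, for contralateral against naive and sham, and jointly, and not elsewhere. The median log2 fold change of microbead was -0.05 against naive and -0.06 against sham, where the members had 0.16 and 0.19. The genes named next were taken from those with the smallest joint p of their lists, so groups that lie apart are no separate support. Of all genes, 6.98%, 7.08% and 5.64% lay below every naive, sham and contralateral library in microbead. Cyfip1, a subunit of the WAVE complex that turns on Arp2/3, lay at 264 to 382 CPM in microbead, below contralateral (786 to 850), sham (498 to 699) and naive (511 to 747). Its log2 fold change was -0.91 against naive, -0.79 against sham and -1.27 against contralateral (edgeR adjusted p 0.114, 0.226 and 0.0633), and -0.78, -0.65 and -1.18 with the length trend removed. Lcp1, the filament bundler L-plastin, lay at 166 to 261 CPM in microbead and at 325 to 514 in all other libraries (log2 fold change -0.99 against naive, edgeR adjusted p 0.125, and -0.87 with the length trend removed). Ssh2, a phosphatase that activates cofilin, lay at 347 to 444 CPM in microbead and 482 to 734 elsewhere.

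Aif1, the actin-bundling protein known as Iba1, showed the opposite order. It lay at 480 to 1290 CPM in microbead, above every other library (217 to 435), with a log2 fold change of 1.22 against naive and 1.46 against sham (edgeR adjusted p 0.148 and 0.095). Both were near 0 once the length trend was removed, at -0.09 and 0.10. Myl6, a myosin light chain, had a log2 fold change of 1.3 against naive, and of 0.05 with the length trend removed. The myosin Myo1e lay at 63.3 to 94.8 CPM in microbead, above every other library. Its log2 fold change was 1.83 against naive, 1.29 against sham and 1.6 against contralateral (edgeR adjusted p 0.321, 0.518 and 0.411). It was 1.93, 1.35 and 1.61 with the length trend removed. Aif1, Myl6 and Myo1e were also taken for their small joint p. Of all genes, 4.85%, 5.11% and 5.2% lay above every naive, sham and contralateral library in microbead. The part of transcript length in the values of these genes was not tested further.

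The sorted cells carried the 7 microglial markers Itgam, Fcrls, P2ry12, Tmem119, Cx3cr1, Csf1r and Sall1, whose summed level was 8580 to 13100 CPM in microbead, 16400 to 19800 in contralateral, 16800 to 19600 in sham and 12700 to 18100 in naive. The summed level of 10 monocyte and macrophage genes was 76.8 to 238 CPM in microbead, 2.68 to 66.1 in contralateral, 10.1 to 103 in sham and 13.3 to 18.3 in naive, with reads for 7 of the 10 and Ly6c2, Chil3 and F10 at 0. The 8 rod genes summed to 456 to 3610 CPM in microbead, 1850 to 3210 in contralateral, 768 to 1370 in sham and 243 to 2720 in naive, so contralateral and sham did not overlap. For the microglial sum the microbead libraries lay below every contralateral and sham library and overlapped naive. For the monocyte and macrophage sum they lay above every naive and contralateral library and overlapped sham. All these cell types express actin genes, and the part of such cells or RNA in the member values was not tested. In bulk samples, fewer cells of a type and less RNA per cell cannot be told apart.

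The members did not vary as 1 unit across the 14 libraries. The highest correlations of log2 CPM between members were those of Cfl1 with Coro1a (Pearson r 0.81), Coro1a with Arpc1b (0.78) and Cfl1 with Arpc1b (0.77), and without microbead 1 they were 0.68, 0.55 and 0.63. Tmsb4x went with Arpc3 (0.74, and 0.78 without microbead 1) and against Coro1a (-0.66, and 0.05 without it). Among 8128 named genes of at least 10 CPM, leaving out members, predicted genes and pseudogenes, those most like the mean of the members were Rpl4 (r 0.901), Nmt1 (0.852), Use1 (0.833), Trem2 (0.828) and Rpl8 (0.825). These values describe 14 libraries that share depth and length effects.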

How the data were processed

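The members and the gene lists were chosen with earlier results of these data known. The authors deposited 1 table per library, with expected counts (estimated reads per gene, not scaled, per the file headers), FPKM and TPM values, and a series-wide table of FPKM. The name of that table calls the libraries SMART-Seq2, a full-length cDNA method. The submitters' processing notes list mm10 as the build and, as tools, DESeq2 1.30.1, Salmon 1.4.0 and R 4.0.3, and give no roles.

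Expected counts were rounded and fitted in R 4.3.3 with edgeR 4.0.16 (TMM scaling, filterByExpr with a minimum count of 10, robust quasi-likelihood test). One fit held all 14 libraries and 14279 genes, with Benjamini-Hochberg adjustment over all of them, a threshold of 0.05 and 10 residual degrees of freedom. The common biological coefficient of variation over all genes tested was 1.13, so for many genes only large differences can pass. The members varied less within groups than most genes. CPM values are TMM-scaled. FPKM, the authors' deposited unit, served for levels between genes and, as log2(FPKM + 1), for 1 alternative in limma 3.58.1. TPM was not used. Alternatives included DESeq2 1.42.0 size factors, its Wald test (a likelihood ratio test jointly), voom, other filters, a replicate block and each library left out. Another was removal of a lowess trend (span 0.5) of log2 CPM on transcript length, fitted per library to genes of at least 10 CPM. Gene pair ratios (0.5 added to each count) were tested by exact two-sided permutation over libraries. All members and, of each wider list, genes past the threshold and the 3 with the smallest joint p could be named. On simulated counts with known changes between microbead and naive (14279 genes, 3 runs) the fit called 10 of 150 genes raised 4-fold, 2 of 150 lowered to 0.25, 0 of 150 at 2-fold, 0 of 150 at 0.5 and 0 of 42237 unchanged genes, so a gene that did not pass may still differ. The changed genes were drawn from all genes tested, so these counts do not say how often a changed member would be called. Microglia were matched to their groups by the labels. Coordinates and shared 31-base stretches come from GENCODE M21. Of the microglial marker list, 1 gene is not reported here, and the summed level leaves it out.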

Additional observations from a re-analysis of the deposited data

How the results depend on the processing

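As reported, the edgeR test called 0 members in every comparison. The count became 1 (Tmsb4x) for each microbead comparison and jointly with no filter and with DESeq2 (Wald test, and likelihood ratio test jointly). Jointly it was also 1 with DESeq2 size factors and with a filter of at least 50 reads. Leaving out 1 library gave counts of 0 to 1 in each microbead comparison and jointly, with 1 when microbead 2 or 3 was left out. These settings also called other shares of all genes. No filter called 0.542 to 0.631% in the microbead comparisons and 1.22% jointly. The DESeq2 tests called 3.17 to 4.51% (Wald) and 3.35% (likelihood ratio, jointly). DESeq2 size factors called 0.378% jointly and the filter of at least 50 reads 0.283% jointly. Leaving out microbead 2 called 0.116 to 0.336% and 0.129% jointly, and leaving out microbead 3 called 0.875 to 1.1% and 0.516% jointly. The cause was not tested.

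The members' median log2 fold change for microbead against naive was -0.21 with log2 FPKM, -0.23 with the length trend removed and -0.06 with microbead 1 removed as well, and against sham it was -0.22, -0.16 and -0.10. Without both libraries under 12000 detected genes it was 0.41 against sham and 0.22 against contralateral. Voom gave 0.18 for microbead against contralateral and 0.12 for contralateral against sham, and the length trend and microbead 1 both removed gave 0.13 for contralateral against naive. Leaving out 1 library gave -0.01 to 0.32 for microbead against naive, 0.04 to 0.41 against sham, -0.35 to 0.12 against contralateral, 0.15 to 0.50 for contralateral against naive and 0.05 to 0.49 for contralateral against sham. The Arpc1a to Arpc1b log2 ratio against naive was 0.35 from FPKM and -0.34 to 0.10 on leaving out 1 library, with 0.10 without microbead 1.

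Single members' log2 fold changes changed sign in 75 cases under other alternatives and in 54 on leaving out 1 library, of 1500 values compared. In 8 of these 129 cases the value as reported was larger than its standard error. With DESeq2 size factors, these were for microbead against naive 0.06 (Tmsb10), for microbead against sham 0.07 (Tmsb10), for sham against naive -0.01 (Tmsb10). With the DESeq2 Wald test, these were for microbead against naive 0.04 (Tmsb10), for microbead against sham 0.05 (Tmsb10), for sham against naive -0.01 (Tmsb10). With voom, these were for microbead against naive 0.06 (Cfl1) and 0.07 (Tmsb10), for microbead against sham 0.08 (Cfl1), for microbead against contralateral 0.31 (Arpc2), 0.22 (Arpc1b), 0.00 (Coro1a) and 0.13 (Actg1), for sham against naive 0.00 (Tmsb4x), for contralateral against naive -0.17 (Arpc2) and -0.10 (Pfn1), for contralateral against sham -0.02 (Arpc2) and -0.03 (Pfn1). With log2 FPKM, these were for microbead against naive -0.25 (Arpc2), -0.12 (Pfn1), -0.16 (Actb), -0.33 (Arpc1b) and -0.29 (Coro1a), for microbead against sham -0.15 (Arpc2), -0.28 (Arpc1b) and -0.51 (Coro1a), for sham against naive 0.06 (Arpc3), for contralateral against naive -0.01 (Arpc2), -0.23 (Pfn1) and 0.15 (Arpc3), for contralateral against sham -0.11 (Pfn1) and 0.09 (Arpc3). With the replicate block, these were for microbead against naive 0.03 (Tmsb10). With the length trend removed, these were for microbead against naive -0.23 (Arpc2), -0.70 (Pfn1), -0.32 (Arpc3), -0.02 (Actb) and -0.22 (Arpc1b), for microbead against sham -0.07 (Arpc2), -0.57 (Pfn1), -0.32 (Arpc3), -0.14 (Arpc1b) and -0.14 (Coro1a), for microbead against contralateral -0.40 (Pfn1), for sham against naive 0.00 (Arpc3), for contralateral against naive -0.31 (Pfn1), for contralateral against sham -0.18 (Pfn1). With both libraries under 12000 detected genes left out, these were for microbead against naive 0.14 (Cfl1), for microbead against sham 0.19 (Cfl1), for microbead against contralateral 0.56 (Arpc2), 0.39 (Arpc1b), 0.12 (Coro1a) and 0.18 (Actg1), for contralateral against naive -0.31 (Arpc2) and -0.19 (Pfn1), for contralateral against sham -0.17 (Arpc2) and -0.06 (Pfn1). With the length trend and microbead 1 both removed (chosen after seeing the data), these were for microbead against naive -0.05 (Arpc2), -0.53 (Pfn1), -0.07 (Arpc3), -0.04 (Actb) and -0.22 (Tmsb4x), for microbead against sham -0.40 (Pfn1), -0.06 (Arpc3) and -0.13 (Tmsb4x), for microbead against contralateral -0.16 (Pfn1), 0.01 (Arpc1b) and 0.03 (Coro1a), for contralateral against naive -0.03 (Arpc2) and -0.37 (Pfn1), for contralateral against sham -0.24 (Pfn1). With no filter, these were for sham against naive 0.00 (Arpc3), for contralateral against naive -0.07 (Pfn1). With a filter of at least 50 reads, these were for contralateral against naive -0.06 (Pfn1). With only the 2 groups compared in the fit, these were for contralateral against naive -0.06 (Pfn1).

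For microbead against naive, leaving out 1 library gave -0.42 to 0.25 (Arpc2), -0.03 to 0.18 (Actb), -0.09 to 0.45 (Arpc1b), -0.30 to 0.65 (Coro1a), -0.62 to 0.14 (Cfl1) and -0.30 to 0.11 (Tmsb10). For microbead against sham, leaving out 1 library gave -0.28 to 0.38 (Arpc2), -0.04 to 0.51 (Arpc1b), -0.51 to 0.44 (Coro1a), -0.57 to 0.19 (Cfl1) and -0.31 to 0.10 (Tmsb10). For microbead against contralateral, leaving out 1 library gave -0.54 to 0.33 (Arpc2), 0.00 to 0.45 (Pfn1), -0.45 to 0.15 (Arpc1b), -0.77 to 0.18 (Coro1a), -0.39 to 0.07 (Actg1) and -1.16 to 0.32 (Tmsb10). For sham against naive, leaving out 1 library gave -0.21 to 0.14 (Arpc3), -0.15 to 0.00 (Arpc1b), -0.19 to 0.01 (Tmsb4x), -0.11 to 0.01 (Cfl1) and -0.19 to 0.15 (Tmsb10). For contralateral against naive, leaving out 1 library gave -0.31 to 0.37 (Arpc2), -0.19 to 0.19 (Pfn1) and -0.36 to 1.13 (Tmsb10). For contralateral against sham, leaving out 1 library gave -0.17 to 0.50 (Arpc2), -0.06 to 0.32 (Pfn1), -0.04 to 0.22 (Actb) and -0.37 to 1.12 (Tmsb10).

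Deviations of same-numbered libraries from their group means correlated at -0.046 to 0.108. These values cannot tell whether same-numbered retinas came from the same mouse. With the replicate block 0 members were called in each comparison, and their median log2 fold change was 0.17 for microbead against naive, 0.17 against sham and -0.20 against contralateral. The depth of microbead 1 (1340512 expected counts) limits Tmsb10 and Arpc3 most.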
